A study of Brassica rapa subsp. chinensis with 2 samples.

Results

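The tubulin, kinesin and actin genes of *Brassica rapa* stems were compared between ‘CX001’, a flowering Chinese cabbage line without epidermal wax, and ‘FT’, a Chinese cabbage line with wax that served as the control. A gene was taken as a member when the best protein match given for it in the table contained tubulin, kinesin, microtubule-associated, katanin, formin-like, profilin, villin or a word beginning with actin. By this rule 298 of the 33087 genes in the table were members, and they carried 167 different protein matches. Of these genes, 285 were matched to proteins of *Arabidopsis thaliana*, so that a name used here is the name of the nearest described protein and 1 name can belong to several genes of the triplicated *B. rapa* genome. Both lines are doubled-haploid lines from microspore culture, and stems were collected at bolting from plants that were sown in the same season and, by the labels, received no treatment; the methods of the study describe a cold period (vernalization) for the germinated seeds. Each line was 1 group of 3 libraries (6 in all). The sources used here do not say that the 3 came from separate plants, so a p-value here speaks only to the spread among libraries, which may be technical. The lines belong to different crop types, and a difference caused by the wax-less locus *wlm1* cannot be told apart from any other difference between their genomes.

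Microtubules are hollow tubes built from dimers of alpha- and beta-tubulin, and a ring complex that contains gamma-tubulin starts new ones. Under the plasma membrane of a growing plant cell they form a cortical array that guides the cellulose synthase complexes, and in dividing cells they form the preprophase band, the spindle and the phragmoplast. Kinesins walk along or disassemble microtubules, MAP65 and MAP70 proteins bind along them, EB1 proteins ride on their growing ends and katanin severs them. Actin filaments carry vesicles and organelles to the growing wall. Profilin binds actin monomers, formins and the ARP2/3 complex start filaments, villins and fimbrins bundle them, capping protein closes their ends, and actin-depolymerizing factors (ADF) cut them.

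An actin transcript was also the internal control of the study's semi-quantitative PCR on several organs and of its quantitative PCR on stems. The primers listed for it are shown because the actin genes are members here. No letters are marked, and which of the actin copies the primers amplify was not determined.
ACT forward: cgaaacaacttacaactcca
ACT reverse: ctctttgctcatacggtca

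The values are normalized counts, that is, reads of a gene divided by the size factor of the library. The table gives only the mean of each line, but every mean is a sum of whole reads from 3 libraries that each have their own step, and the reads behind 99.9% of the genes in each line could be recovered without ambiguity. Means are given with the SD of the 3 libraries of a line (n = 3), and a log2 difference is that of limma with its SE. The libraries are called a, b and c in each line by falling size factor, and these letters give no order in time and no pairing between the lines. The recovered reads summed to between 15146065 and 15811823 in the ‘FT’ libraries and between 15167525 and 16991464 in the ‘CX001’ libraries. Across 25962 genes the libraries of a line correlated at 0.951 to 0.978 and those of different lines at 0.742 to 0.781 (Pearson's r on log2 values across genes, which are not independent replicates). *BraA09g066480.3C*, the wax gene that the series title describes as lost, had 14256 to 20003 normalized counts in the ‘FT’ libraries and 5.66 to 25.7 in the ‘CX001’ libraries. Among markers of other cell types, 9 of 16 tested xylem genes rose and 0 fell, 0 of 8 phloem genes rose and 2 fell, 0 of 11 epidermis genes rose and 2 fell, and 3 of 16 genes of dividing cells rose and 0 fell. Over all genes tested, 14.6% rose and 16.0% fell. Per kilobase of coding length, all 18 xylem markers summed to 7336, 13169 and 16843 in ‘CX001’ libraries a, b and c. In the ‘FT’ libraries these sums ran from 4295 to 5469. In whole stems, fewer cells of a type and less RNA per cell cannot be told apart.

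Members moved in both directions. More of them were higher than lower in ‘CX001’ at any fold, and past 2-fold the 2 counts were close. Of the 298 members, 254 had a mean of at least 10 normalized counts in the higher line and were tested with limma (log2 of the normalized count plus 1, Benjamini-Hochberg adjustment over 25962 genes), and 21 of the 254 reached that minimum in 1 line only. A member is said to have risen or fallen where the adjusted p was under 0.05 and the ratio of the line means was over 2-fold. By this rule 31 members rose and 28 fell in ‘CX001’. The percentages were 12.2% and 11.0% of the 254, against 14.6% and 16.0% of all genes tested. Counts of family members that rose or fell, given further on, stand against the same percentages of all genes. By the ratio of the means alone 33 members were more than 2-fold higher and 28 more than 2-fold lower, against 16.7% and 17.4% of all genes. At any fold, 85 members (33.5%) were higher and 46 (18.1%) lower at an adjusted p under 0.05, against 25.0% and 24.5% of all genes tested, and the any-fold counts of families given further on stand against the same percentages. The libraries of the lines did not overlap in 154 members (60.6%), against 59.3% of all genes tested. The shares of members past 2-fold were thus below those of all genes, the share without overlap was near it, and at any fold the share was above it for higher and below it for lower. Of the 254 members, 138 had means within 1.5-fold of each other. The median log2 ratio of the line means was 0.26 over the members and 0.01 over all genes, and the middle of the distribution of members ran from -0.23 (lower quartile) to 0.64 (upper quartile).

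**Figure D1:**
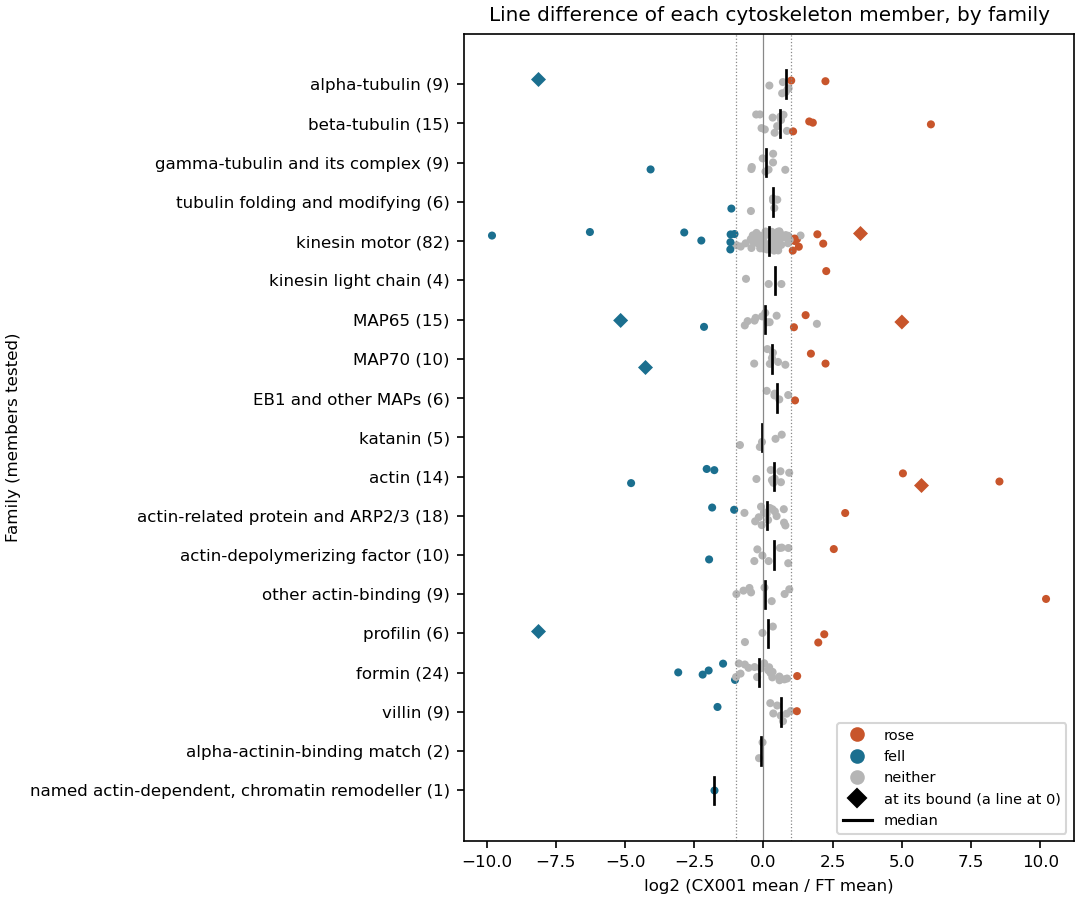
Log2 ratio of the ‘CX001’ mean to the ‘FT’ mean (horizontal axis) for each of the 254 tested members, by family (vertical axis, number of members tested in parentheses). Colours mark members that rose or fell, diamonds are members at 0 in 1 line drawn at the bound that 3 reads allow, black bars are medians and dotted lines mark 2-fold; the medians of alpha-tubulin (0.80), villin (0.62) and beta-tubulin (0.61) lie farthest to the right.

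The summed level of the whole cytoskeleton set was higher in ‘CX001’. Per kilobase of coding length, the normalized counts of all members added up to 210318 ± 24561 in ‘FT’ against 326868 ± 8397 in ‘CX001’, a ratio of 1.55, and the library sums of the lines did not overlap. Alpha-tubulin (34884 ± 7957 in ‘FT’ against 56667 ± 2878 in ‘CX001’, ratio 1.62) and beta-tubulin (51281 ± 8999 in ‘FT’ against 78483 ± 5480.2 in ‘CX001’, ratio 1.53) had higher sums in every ‘CX001’ library than in any ‘FT’ library. The same was true of actin (39122 ± 7238 in ‘FT’ against 57473 ± 1895 in ‘CX001’, ratio 1.47), ADF (20504 ± 2026 in ‘FT’ against 29590.3 ± 1787 in ‘CX001’, ratio 1.44), villin (3683 ± 377 in ‘FT’ against 5479 ± 160.4 in ‘CX001’, ratio 1.49), kinesin light chain (1890.5 ± 271 in ‘FT’ against 3738 ± 351 in ‘CX001’, ratio 1.98) and profilin (19587 ± 2415 in ‘FT’ against 52440.3 ± 1625 in ‘CX001’, ratio 2.68). The sums of the MAP65 genes (2587 ± 214 in ‘FT’ against 2488 ± 91.9 in ‘CX001’, ratio 0.96), of gamma-tubulin and its complex (1546 ± 72.8 in ‘FT’ against 1549.9 ± 85.4 in ‘CX001’, ratio 1.0) and of the actin-related proteins (4075 ± 130.4 in ‘FT’ against 4058 ± 116 in ‘CX001’, ratio 1.0) overlapped between the lines. The sums of EB1 and other microtubule-associated proteins (ratio 1.61), MAP70 (1.22), katanin (1.14) and other actin-binding genes (1.11) were also higher without overlap. In katanin only 2 of the 5 tested genes had a higher mean in ‘CX001’. Of the other actin-binding genes, 3 passed the test as higher and 4 as lower at any fold. Among these *BraA01g042600.3C*, nearly unread in ‘FT’, held 8.6% of the ‘CX001’ sum. The sum of the tubulin folding and modifying genes was lower without overlap (3428 ± 126 in ‘FT’ against 2940.0 ± 206 in ‘CX001’, ratio 0.86). Of that sum, 1 gene (*BraA05g013900.3C*, cofactor A) held 77.0% in ‘FT’ and 65.4% in ‘CX001’. Without division by coding length the ratio was 1.08, and 4 of the 6 tested genes had a higher mean in ‘CX001’. No test was made of these sums.

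**Figure D2:**
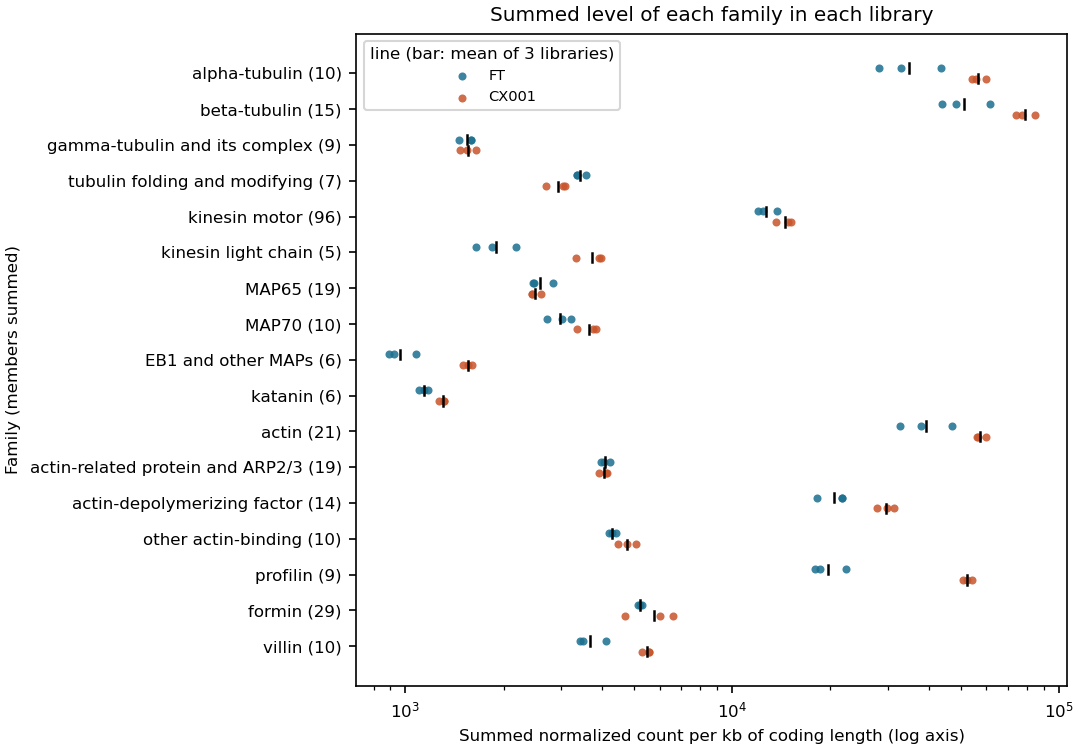
Sum of normalized counts per kilobase of coding length (horizontal log axis) over all members of each family with at least 5 genes (vertical axis, number of members in parentheses), 1 point per library and a black bar at the mean of the 3 libraries. Every ‘CX001’ point of alpha-tubulin, beta-tubulin, actin, ADF, profilin and villin lies right of every ‘FT’ point. The points of MAP65, gamma-tubulin, actin-related proteins, kinesin motors and formins overlap between the lines.

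Within each line the same few families held most of the level. Per kilobase, beta-tubulin made up 24.3% ± 1.48 of the summed level of members in ‘FT’ and 24.0% ± 1.06 in ‘CX001’ (SD, n = 3 libraries). Actin made up 18.5% ± 1.25 and 17.6% ± 0.207, and alpha-tubulin 16.4% ± 1.81 and 17.3% ± 0.436. These shares overlapped between the lines, whereas the share of profilin was 9.39% ± 1.46 in ‘FT’ and 16.1% ± 0.709 in ‘CX001’ and did not overlap. The 96 kinesin motors together held 6.12% ± 1.12 and 4.44% ± 0.219 of the summed level.

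Of the 10 alpha-tubulin genes, 9 were tested, 8 of them had a higher mean in ‘CX001’, 7 of the 9 passed the test at any fold in that direction, 2 rose and 1 fell. The gene with the widest increase was *BraA03g009230.3C*, matched to alpha-5 tubulin (*TUBA5*) and placed on the *B. rapa* genome V3.0 at A03, bases 3958938 to 3960889. Its normalized counts were 1535, 1215 and 1974 in ‘FT’ against 7827, 7702 and 6774 in ‘CX001’. The ‘CX001’ libraries were all far above the ‘FT’ libraries, and the gene rose 4.72-fold (log2 difference 2.26 ± 0.18, adjusted p = 4.46e-05). The share of alpha-tubulin level per kilobase that came from this gene was 4.17% ± 0.171 in ‘FT’ and 12.1% ± 0.613 in ‘CX001’. *BraA06g003540.3C*, 1 of the copies matched to alpha-6 tubulin (*TUBA6*), had normalized counts of 9844, 7966 and 13185 in ‘FT’ against 22315, 20083 and 19692 in ‘CX001’. It rose 2.0-fold (log2 difference 1.03 ± 0.21, adjusted p = 0.00451), at the very edge of the fold rule: the log2 ratio was under 1 with equal totals (0.95), with the median of all genes set to 0 (0.99) and without ‘FT’ library a (0.97), ‘FT’ library b (0.85) or ‘CX001’ library a (0.94). Its copy on A05, *BraA05g019480.3C*, was the most abundant alpha-tubulin gene of both lines, with 18538, 16374 and 25376 in ‘FT’ against 24937, 23152 and 21811 in ‘CX001’, and these libraries overlapped (adjusted p = 0.377). The alpha-4 match *BraA08g003230.3C* was higher in every ‘CX001’ library but by less than 2-fold (log2 difference 0.91 ± 0.20, adjusted p = 0.00621). The member that fell, *BraA02g025280.3C*, is a gene model of only 291 coding bases matched to alpha-5 tubulin. It had 316, 326 and 271 in ‘FT’ against 0 in each library of ‘CX001’, at least 284-fold lower in ‘CX001’ when 3 reads are taken as the limit for the line. Tubulin and actin copies are alike in sequence, and the sources used here do not say how reads that fit several copies were counted, so the split between copies is less certain than the sum of a family.

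Beta-tubulin showed the same direction with 1 extreme case. All 15 genes were tested, 12 had a higher mean in ‘CX001’, 8 passed the test at any fold in that direction and 0 in the other, 4 rose and 0 fell. *BraA01g025030.3C*, a beta-3 tubulin (*TUBB3*) match at A01, bases 14769585 to 14771070, had 16.4, 11.6 and 19.0 in ‘FT’ against 1275, 1067 and 763 in ‘CX001’. It was nearly unread in the ‘FT’ stems and rose 66.2-fold (log2 difference 5.96 ± 0.27, adjusted p = 3.84e-06). The other beta-3 copies, *BraA06g020000.3C*, *BraA06g023840.3C* and *BraA06g026350.3C*, had means of 6258 ± 1027 in ‘FT’ against 5724 ± 1243 in ‘CX001’, 6812 ± 1397 in ‘FT’ against 5678 ± 1087 in ‘CX001’ and 5697 ± 847 in ‘FT’ against 7174 ± 618 in ‘CX001’, and none of them passed the test (adjusted p from 0.104 to 0.585). *BraA07g039280.3C*, a beta-1 tubulin match, had 3591, 3117 and 4701 in ‘FT’ against 16213, 11843 and 11203 in ‘CX001’. It rose 3.44-fold (log2 difference 1.78 ± 0.21, adjusted p = 0.000281), and all ‘CX001’ libraries lay above all ‘FT’ libraries. The beta-8 copies also rose. *BraA06g031180.3C* had 1163, 844 and 1460.0 in ‘FT’ against 2643, 3586 and 4674 in ‘CX001’ (log2 difference 1.65 ± 0.25, adjusted p = 0.00113). *BraA05g014630.3C* had 1096, 1015 and 1589.6 in ‘FT’ against 3331, 2371 and 2071 in ‘CX001’ (log2 difference 1.07 ± 0.22, adjusted p = 0.00519), and its log2 ratio fell under 1 without ‘FT’ library a (0.99), ‘FT’ library b (0.95) or ‘CX001’ library a (0.85). The libraries of ‘CX001’ ranked these copies in opposite orders, with library a the highest for the A05 copy and library c the highest for the A06 copy. The most abundant beta-tubulin gene, the beta-6 match *BraA10g026070.3C*, was 11623 ± 2066 in ‘FT’ against 20916 ± 957 in ‘CX001’ and passed the test without reaching 2-fold (log2 difference 0.86 ± 0.18, adjusted p = 0.00507). The beta-4 copy *BraA02g031210.3C* was 9649 ± 1755 in ‘FT’ against 14979 ± 633 in ‘CX001’ (adjusted p = 0.0155).

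Few of the genes that nucleate or fold tubulin passed 2-fold. In gamma-tubulin and its complex 0 of 9 tested members rose and 1 fell, while at any fold 2 passed the test as higher and 2 as lower. That member, *BraA10g022580.3C* (complex component 2), was low in both lines, with 12.5, 10.6 and 9.49 in ‘FT’ against 0, 1.93 and 0 in ‘CX001’. Its ‘CX001’ mean rests on 2 reads, which gives a ratio of 16.9-fold lower with a 95% Poisson interval from 4.22 to 142 that covers counting error only. Component 5 (*BraA02g026050.3C*) was higher by less than 2-fold (log2 difference 0.79 ± 0.14, adjusted p = 0.00224), and component 4 (*BraA09g044760.3C*) was 996 ± 154 in ‘FT’ against 744 ± 141 in ‘CX001’ (adjusted p = 0.082). Of the 6 tested folding and modifying genes, 0 rose and 1 fell, and 1 was higher and 2 were lower at any fold. The libraries of the lines did not overlap in 5 of the 6, against 59.3% of all genes tested. Tubulin-folding cofactor E (*BraA07g036010.3C*), which helps release finished dimers, had 44.3, 37.6 and 33.7 in ‘FT’ against 20.8, 20.3 and 10.7 in ‘CX001’ (log2 difference -1.16 ± 0.36, adjusted p = 0.027). That call ended without ‘CX001’ library c (adjusted p = 0.059), ‘FT’ library a (0.0908), b (0.0662) or c (0.0512). Cofactor A (*BraA05g013900.3C*), which holds free beta-tubulin, was 879 ± 51.3 in ‘FT’ against 642 ± 85.8 in ‘CX001’ (adjusted p = 0.0223), and the tubulin–tyrosine ligase-like gene *BraA04g010280.3C* was 508 ± 66.4 in ‘FT’ against 718 ± 94.0 in ‘CX001’ (adjusted p = 0.0257).

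Kinesin motors were the largest family and past 2-fold were split evenly, with 8 that rose and 8 that fell among 82 tested of 96. At any fold 21 passed the test as higher and 12 as lower. The median log2 ratio was 0.20, and 48 of the 82 were higher in ‘CX001’. The most abundant were the KIN-5D match *BraA01g025440.3C*, a bipolar motor of the spindle, with means of 2445 ± 91.2 in ‘FT’ against 2807 ± 396 in ‘CX001’ (adjusted p = 0.268), and the KIN-4A match *BraA09g004000.3C*, with 1979 ± 111 in ‘FT’ against 2718 ± 250.0 in ‘CX001’ (adjusted p = 0.0151). KIN-4A is the FRAGILE FIBER kinesin of Arabidopsis, which is needed for the ordered laying down of wall material. Its other expressed copies rose. *BraA02g039270.3C* had 735, 787 and 727 in ‘FT’ against 1467, 1939 and 1516 in ‘CX001’ (log2 difference 1.12 ± 0.14, adjusted p = 0.000354). *BraA06g035990.3C* had 718, 818 and 872 in ‘FT’ against 1665, 1848 and 1499 in ‘CX001’ (log2 difference 1.06 ± 0.13, adjusted p = 0.00038). In each the ‘CX001’ libraries were all above the ‘FT’ libraries, and the log2 ratios lay close to 1: without ‘CX001’ library b they were 0.99 and 0.98, without ‘FT’ library a that of the A06 copy was 0.98, and with equal totals it was 0.99.

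The KIN-7 subfamily held genes with wide changes in both directions. *BraA08g022690.3C*, matched to KIN-7D, had 316, 364 and 254 in ‘FT’ against 1383, 1549 and 1237 in ‘CX001’. It rose 4.46-fold (log2 difference 2.16 ± 0.16, adjusted p = 3.03e-05), and the libraries were far apart. Another KIN-7D match, *BraA07g037920.3C*, fell, with 274, 244 and 235 in ‘FT’ against 68.0, 88.8 and 172 in ‘CX001’ (log2 difference -1.30 ± 0.32, adjusted p = 0.0111), a log2 ratio of -0.94 without ‘CX001’ library a. *BraA10g033210.3C*, matched to KIN-7O and placed at A10, bases 20474747 to 20478286, had 247, 351 and 266 in ‘FT’ against 0, 0.965 and 0 in ‘CX001’. The ‘CX001’ mean comes from 1 read, a ratio of 896-fold lower with a 95% Poisson interval from 157 to 34596 (adjusted p = 5.77e-06). The KIN-7L match *BraA02g002090.3C* also fell (log2 difference -1.01 ± 0.22, adjusted p = 0.00593), with log2 ratios of -0.995 without ‘CX001’ library b and -0.79 without ‘FT’ library b. The KIN-7B match *BraA06g023100.3C* rose (log2 difference 1.11 ± 0.20, adjusted p = 0.00221), with a log2 ratio of 0.98 without ‘CX001’ library a. In all, 2 of 20 tested KIN-7 genes rose and 3 fell.

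Among the armadillo-repeat kinesins (KIN-U) 2 of 4 tested genes fell and 0 rose. *BraA06g009220.3C*, matched to KIN-UA at A06, bases 5023211 to 5030307, had 109.7, 120.4 and 90.7 in ‘FT’ against 0.944, 0 and 3.21 in ‘CX001’ (log2 difference -5.73 ± 0.54, adjusted p = 9.03e-05). The next gene on the chromosome, *BraA06g009230.3C*, lies 3990 bases further along on the same strand, carries the same match and had means of 87.9 ± 18.2 in ‘FT’ against 86.3 ± 28.9 in ‘CX001’. Of this adjacent pair only the first differed. *BraA09g045700.3C*, matched to KIN-UC, which shapes root hairs in Arabidopsis, had 334, 307 and 193 in ‘FT’ against 42.5, 82.0 and 51.4 in ‘CX001’ and fell (log2 difference -2.24 ± 0.31, adjusted p = 0.00068).

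KIN-14 motors, which walk toward the minus end, had 1 gene that rose and 2 that fell among 24 tested. *BraA06g025590.3C* (KIN-14D), a short model of 780 coding bases, had 5.77, 8.67 and 9.49 in ‘FT’ against 25.5, 35.7 and 31.1 in ‘CX001’ (log2 difference 1.83 ± 0.35, adjusted p = 0.00347). *BraA06g014050.3C* (KIN-14O) had 33.7, 27.9 and 19.0 in ‘FT’ against 2.83, 2.90 and 5.36 in ‘CX001’ and fell (log2 difference -2.57 ± 0.41, adjusted p = 0.00139). *BraA08g032810.3C* (KIN-14H) fell as well (log2 difference -1.20 ± 0.34, adjusted p = 0.02), a call that ended without either ‘FT’ library a (adjusted p = 0.0655) or b (0.07) or ‘CX001’ library a (0.0544) or c (0.0521). The spindle motors of KIN-5 were higher in ‘CX001’ by mean in 6 of 6 tested genes, of which 3 passed the test at any fold. The 1 that rose, *BraA02g031900.3C* (KIN-5B), is a model of 579 coding bases with 0 in each library of ‘FT’ against 11.3, 13.5 and 10.7 in ‘CX001’, at least 11.2-fold higher in ‘CX001’. KIN-13 kinesins disassemble microtubules from their ends. Of 5 tested KIN-13 genes, 4 passed the test as higher and 1 as lower, and none reached 2-fold. *BraA03g046550.3C* (KIN-13A) was 398 ± 41.3 in ‘FT’ against 742 ± 136 in ‘CX001’ (log2 difference 0.88 ± 0.17, adjusted p = 0.00307) and came to 1.04 on the log2 scale without ‘CX001’ library c, while *BraA01g036170.3C* (KIN-13B) was 2615 ± 175 in ‘FT’ against 1935 ± 80.2 in ‘CX001’ (log2 difference -0.43 ± 0.11, adjusted p = 0.0136).

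Some KIN-12 kinesins act in the phragmoplast, where the new cell wall forms. Of 8 tested KIN-12 genes 1 rose and 0 fell, and 4 had a higher mean in ‘CX001’. *BraA06g021780.3C* (KIN-12E) had 166, 247 and 142 in ‘FT’ against 547, 498 and 299 in ‘CX001’ and rose (log2 difference 1.26 ± 0.28, adjusted p = 0.00683). *BraA04g006890.3C* (KIN-12F) had means of 5.29 ± 0.480 in ‘FT’ against 13.4 ± 5.45 in ‘CX001’ and missed the threshold (adjusted p = 0.0531), though it was past it with the median of all genes set to 0 (0.0424) and without ‘CX001’ library c (0.0256). The KIN-10C match *BraA06g031240.3C* had 21.2, 27.0 and 8.43 in ‘FT’ against 38.7, 57.9 and 34.3 in ‘CX001’ and rose with an adjusted p just under the threshold (1.27 ± 0.46 on the log2 scale). That call ended with equal totals (0.0675) and without ‘FT’ library a (0.0783) or c (0.121) or any 1 of the ‘CX001’ libraries (0.0679 to 0.155). The KIN-8B match *BraA06g025200.3C* was 122 ± 15.1 in ‘FT’ against 53.4 ± 19.0 in ‘CX001’ and fell (log2 difference -1.24 ± 0.31, adjusted p = 0.0108), with a log2 ratio of -0.95 without ‘CX001’ library b.

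Kinesin light chain-related proteins hold cortical microtubules in place while cellulose is laid down in Arabidopsis, where they are known as CMU proteins. Of 4 tested genes 1 rose and 0 fell. *BraA06g037260.3C*, matched to KINESIN LIGHT CHAIN-RELATED 2, had 563, 396 and 846 in ‘FT’ against 1983, 3419 and 3289.7 in ‘CX001’. It rose 4.81-fold (log2 difference 2.29 ± 0.30, adjusted p = 0.000519), and library a was the lowest of ‘CX001’ but still above all of ‘FT’. The match to KINESIN LIGHT CHAIN-RELATED 1 on A03, *BraA03g027410.3C*, was 2339.7 ± 388 in ‘FT’ against 3667 ± 174 in ‘CX001’ and passed the test without reaching 2-fold (log2 difference 0.66 ± 0.15, adjusted p = 0.00656), whereas its copy *BraA04g022540.3C* was 274 ± 36.7 in ‘FT’ against 177 ± 62.1 in ‘CX001’ (adjusted p = 0.0556).

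**Figure D3:**
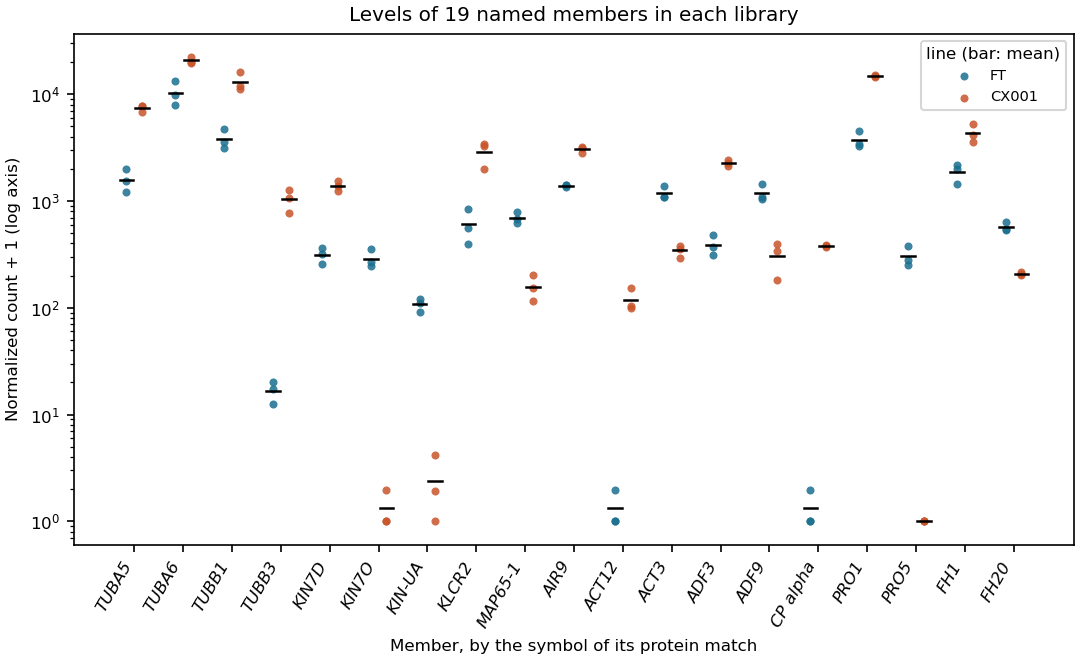
Normalized count plus 1 (vertical log axis) of 19 members named in the text (horizontal axis, by the symbol of the protein match, CP alpha being the capping protein alpha subunit), 1 point per library and a bar at the mean of a line. In all 19 the 3 points of 1 line lie above the 3 points of the other; *KIN7O*, *KIN-UA* and *PRO5* are at or near 0 in ‘CX001’, and *ACT12* and CP alpha in ‘FT’.

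MAP65 proteins bundle microtubules that run in opposite directions. Of 15 tested MAP65 genes 3 rose and 2 fell, with a median log2 ratio of 0.06. The copies of MAP65-1 differed from each other. *BraA03g013520.3C* at A03, bases 5900115 to 5902680 had 628, 785 and 675 in ‘FT’ against 204, 152 and 116 in ‘CX001’ and fell (log2 difference -2.17 ± 0.22, adjusted p = 0.00012). The more abundant *BraA10g013220.3C* was 1569 ± 69.8 in ‘FT’ against 1055 ± 129 in ‘CX001’ and *BraA02g013420.3C* was 617 ± 36.1 in ‘FT’ against 858 ± 88.4 in ‘CX001’, and these passed the test in opposite directions without reaching 2-fold (adjusted p = 0.00618 and 0.015). *BraA04g011530.3C*, a fragment of 288 coding bases with the same match, had 0 in each library of ‘FT’ against 38.7, 35.7 and 26.8 in ‘CX001’ and was at least 32.0-fold higher in ‘CX001’. *BraA07g027200.3C*, a fragment of 489 coding bases matched to MAP65-2, had 37.5, 40.4 and 36.9 in ‘FT’ against 0 in each library of ‘CX001’ and was at least 35.7-fold lower. The MAP65-6 match *BraA06g040010.3C* had 369, 531 and 323 in ‘FT’ against 567, 807 and 1247 in ‘CX001’ (log2 difference 1.06 ± 0.30, adjusted p = 0.0184), a call that ended without ‘FT’ library a (adjusted p = 0.0641) or c (0.0733) or ‘CX001’ library b (0.0512) and by its log2 ratio (0.75) without ‘CX001’ library c. *BraA03g025730.3C*, a fragment of 273 coding bases matched to MAP65-3, rose from a very low level (4.61 ± 2.91 in ‘FT’ against 13.3 ± 2.33 in ‘CX001’; adjusted p = 0.0365) and lost the call without any library but ‘FT’ a (0.0575 to 0.0965). The MAP65-8 match *BraA09g036810.3C* was over 2-fold higher by its means without passing the test (adjusted p = 0.111), for its libraries overlapped, with 49.1, 75.1 and 34.8 in ‘FT’ against 45.3, 162 and 398 in ‘CX001’. Without ‘CX001’ library a its adjusted p was 0.00745.

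MAP70 proteins are plant-specific microtubule-binding proteins, and MAP70-5 lines the secondary wall bands of developing xylem vessels in Arabidopsis. Both MAP70-5 copies rose. *BraA01g019390.3C* had 14.4, 8.67 and 28.5 in ‘FT’ against 44.4, 75.3 and 124 in ‘CX001’ (log2 difference 2.21 ± 0.51, adjusted p = 0.00832). *BraA03g047430.3C* had 124, 86.7 and 49.5 in ‘FT’ against 204, 264 and 386 in ‘CX001’ (log2 difference 1.75 ± 0.36, adjusted p = 0.00493). The lines did not overlap in either copy, with library c the highest. A low copy of MAP70-4, *BraA09g059080.3C*, had 18.3, 27.0 and 16.9 in ‘FT’ against 0 in each library of ‘CX001’ and was at least 19.3-fold lower in ‘CX001’. The other MAP70-4 copy, *BraA06g010970.3C*, was 584 ± 59.6 in ‘FT’ against 462 ± 82.1 in ‘CX001’ (adjusted p = 0.107). The most abundant MAP70 genes, matched to MAP70-2 (*BraA09g037550.3C*) and MAP70-1 (*BraA07g033300.3C*), were 2145 ± 222 in ‘FT’ against 2365 ± 315 in ‘CX001’ (adjusted p = 0.454) and 1019 ± 139 in ‘FT’ against 1468 ± 180.2 in ‘CX001’ (adjusted p = 0.0185).

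All 6 EB1 and other microtubule-associated genes had a higher mean in ‘CX001’, 4 of them passed the test at any fold, 1 rose and 0 fell. *BraA03g018150.3C*, matched to AIR9, which marks the cortical site of cell division, had 1408, 1402 and 1355 in ‘FT’ against 2823, 3149.8 and 3205 in ‘CX001’. It rose 2.20-fold with tight libraries (log2 difference 1.14 ± 0.11, adjusted p = 0.000109). The TORTIFOLIA1 match *BraA01g017770.3C*, whose loss twists organs in Arabidopsis, was 672 ± 56.7 in ‘FT’ against 885 ± 63.9 in ‘CX001’ (log2 difference 0.40 ± 0.12, adjusted p = 0.0268). Of 5 tested katanin genes 0 rose and 0 fell. The katanin p60 subunit, which does the cutting, was 644 ± 45.4 in ‘FT’ against 871 ± 95.4 in ‘CX001’ for *BraA07g025750.3C* (adjusted p = 0.0238). The p80 matches went apart, with 409 ± 38.8 in ‘FT’ against 646 ± 130.4 in ‘CX001’ for *BraA06g030850.3C* (adjusted p = 0.0131) and 224 ± 13.3 in ‘FT’ against 124 ± 12.3 in ‘CX001’ for *BraA03g003530.3C* (adjusted p = 0.00376).

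Of 14 tested actin genes 3 rose and 3 fell, and 7 further genes stayed under the minimum. In Arabidopsis, actin-2, actin-7 and actin-8 are the vegetative actins and actin-1, actin-3, actin-4, actin-11 and actin-12 the reproductive ones. All the members that rose or fell were matches to reproductive-class actins. All 6 tested copies matched to actin-2 or actin-7 were higher in ‘CX001’ by mean. *BraA02g003190.3C* (actin-7) had 9219.8, 7668 and 11589 in ‘FT’ against 18622, 17223 and 18385 in ‘CX001’ (log2 difference 0.95 ± 0.19, adjusted p = 0.00383), just under 2-fold, and its log2 ratio was 1.10 without ‘FT’ library c. *BraA01g034150.3C* (actin-2) had 8478, 7423 and 11814 in ‘FT’ against 14228, 13664 and 14519 in ‘CX001’ (log2 difference 0.64 ± 0.20, adjusted p = 0.0262). The other 4 had log2 ratios of 0.26 to 0.63, and 1 of them passed the test. Over all 6 the log2 ratios ran from 0.26 to 0.93.

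Among these matches, *BraA06g020340.3C* (actin-12) at A06, bases 11747193 to 11748411 had 0.962, 0 and 0 in ‘FT’ against 99.1, 103 and 152 in ‘CX001’. Its ‘FT’ mean comes from 1 read, a ratio of 368-fold higher in ‘CX001’ with a 95% Poisson interval from 63.1 to 14007 (adjusted p = 1.57e-05). *BraA01g025310.3C*, also matched to actin-12, had 0.962, 0 and 0 in ‘FT’ against 4.72, 8.69 and 18.2 in ‘CX001’ (log2 difference 3.03 ± 0.59, adjusted p = 0.00358). *BraA02g027850.3C* (actin-3, a model of 699 coding bases) had 0 in each library of ‘FT’ against 51.9, 36.7 and 73.9 in ‘CX001’ and was at least 51.4-fold higher. Going the other way, *BraA04g005920.3C* (actin-3) had 1081, 1080.4 and 1368 in ‘FT’ against 357, 380.2 and 294 in ‘CX001’ and fell (log2 difference -1.77 ± 0.15, adjusted p = 6.2e-05). *BraA04g026680.3C* (actin-3) had 26.9, 46.2 and 34.8 in ‘FT’ against 1.89, 0.965 and 1.07 in ‘CX001’ and fell (log2 difference -3.99 ± 0.40, adjusted p = 0.000131). *BraA05g034800.3C* (actin-11) had 86.6, 87.6 and 171 in ‘FT’ against 34.9, 28.0 and 20.4 in ‘CX001’ and fell (log2 difference -1.97 ± 0.36, adjusted p = 0.0025). Of 5 markers of pollen and anthers that are not members, 4 had a higher mean in ‘CX001’ and 3 of these were under the minimum. Members matched to actin-12 and profilin-5 had been planned as such markers too and are counted with their families. The tested actin-12 matches rose. Of the profilin-5 matches, 1 was at 0 in ‘CX001’ and the other was higher by less than 2-fold. The pectinesterase *PPME1* match had means of 2.57 and 22.2 (adjusted p = 0.0529), the ABORTED MICROSPORES match 1.34 and 5.22, and the ANXUR2 matches 0.321 and 2.88 and 0.642 and 2.74, each for ‘FT’ first. The *TPD1* match fell from 173 to 5.61. The part of pollen or anther RNA in the actin values was not tested.

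Among actin-related proteins and ARP2/3 subunits 1 of 18 tested genes rose and 2 fell. *BraA05g011440.3C*, matched to ARP2/3 subunit 2B, had 33.7, 19.3 and 8.43 in ‘FT’ against 84.9, 153 and 237 in ‘CX001’ (log2 difference 2.96 ± 0.54, adjusted p = 0.00258). The subunit 3 match *BraA09g017240.3C* had 200.2, 216 and 241 in ‘FT’ against 101, 95.5 and 119 in ‘CX001’ (log2 difference -1.05 ± 0.18, adjusted p = 0.00191), with log2 ratios of -0.995 without ‘CX001’ library b and -0.98 without ‘FT’ library c. *BraA02g012980.3C*, matched to ARP8, had 679.5, 671 and 715 in ‘FT’ against 169.9, 168 and 234 in ‘CX001’ and fell (log2 difference -1.87 ± 0.16, adjusted p = 6.2e-05). The nuclear actin-related protein ARP4 (*BraA06g014080.3C*), part of chromatin complexes, was 786 ± 88.2 in ‘FT’ against 699 ± 14.5 in ‘CX001’ (adjusted p = 0.304), and ARP9 (*BraA02g030680.3C*) was 595 ± 37.4 in ‘FT’ against 747 ± 59.3 in ‘CX001’ (adjusted p = 0.0527). A chromatin remodeller that the rule caught because its name holds the words actin-dependent, *BraA10g028080.3C*, fell (log2 difference -1.74 ± 0.25, adjusted p = 0.000814) and is not a cytoskeletal protein. The only members outside the named families were 2 matches to an afadin- and alpha-actinin-binding protein, *BraA03g012440.3C* and *BraA09g011610.3C*, which had log2 differences of -0.03 and -0.17 (adjusted p = 0.875 and 0.525).

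Of 10 tested ADF genes 1 rose and 1 fell. *BraA02g010580.3C*, matched to ADF3, had 373, 313 and 483 in ‘FT’ against 2255, 2118 and 2429 in ‘CX001’. It rose 5.82-fold (log2 difference 2.56 ± 0.17, adjusted p = 1.6e-05), and the ‘CX001’ libraries stayed within a narrow range. Its neighbour *BraA02g010570.3C* (ADF4), 1185 bases away on the same strand, was higher by less than 2-fold (log2 difference 0.90 ± 0.11, adjusted p = 0.000404). The most abundant ADF3 copy, *BraA10g017720.3C*, was 3328 ± 406 in ‘FT’ against 6187 ± 538 in ‘CX001’ (log2 difference 0.90 ± 0.14, adjusted p = 0.00138), and *BraA03g011070.3C* was 1433 ± 182 in ‘FT’ against 1631 ± 70.1 in ‘CX001’ (adjusted p = 0.244). *BraA01g003390.3C*, matched to ADF9, which bundles filaments in Arabidopsis, had 1089.5, 1042 and 1439.9 in ‘FT’ against 180.3, 398 and 337 in ‘CX001’ and fell (log2 difference -2.02 ± 0.29, adjusted p = 0.000731).

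The widest rise of any member with reads in both lines was that of *BraA01g042600.3C*, matched to the alpha subunit of the F-actin-capping protein and placed at A01, bases 28416736 to 28419073. It had 0.962, 0 and 0 in ‘FT’ against 381, 389.9 and 367 in ‘CX001’. The ‘FT’ mean comes from 1 read, a ratio of 1183-fold higher in ‘CX001’ with a 95% Poisson interval from 206 to 45454 (adjusted p = 4e-06). The other alpha subunit copy, *BraA03g032150.3C*, was 249 ± 12.1 in ‘FT’ against 256 ± 24.8 in ‘CX001’ (adjusted p = 0.863). The beta subunit, *BraA07g036240.3C*, was 402 ± 55.4 in ‘FT’ against 204 ± 18.3 in ‘CX001’ (log2 difference -0.97 ± 0.16, adjusted p = 0.00152) and passed 2-fold downward with equal totals (-1.04), without ‘CX001’ library b (-1.05) and without ‘FT’ library a (-1.07). Actin-interacting protein 1-2 (*BraA05g029440.3C*), which works with ADF, was 1727 ± 173 in ‘FT’ against 1266 ± 97.7 in ‘CX001’ (log2 difference -0.45 ± 0.13, adjusted p = 0.019), and the stomatal closure-related actin-binding match *BraA07g017860.3C* was 1319 ± 25.8 in ‘FT’ against 2240.3 ± 565 in ‘CX001’ (log2 difference 0.74 ± 0.17, adjusted p = 0.00903).

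Profilin had the largest ratio of summed level among the families of at least 5 genes, and 1 gene held most of it in both lines. *BraA01g008290.3C*, matched to profilin-1 and placed at A01, bases 3998454 to 3999112, had 4539, 3268 and 3444 in ‘FT’ against 14737, 14619 and 15021 in ‘CX001’. It rose 3.94-fold (log2 difference 1.99 ± 0.16, adjusted p = 4.31e-05) and made up 52.5% ± 3.02 in ‘FT’ and 77.7% ± 1.37 in ‘CX001’ of the profilin level per kilobase. A lesser profilin-1 copy, *BraA09g012010.3C*, had 404, 341 and 448 in ‘FT’ against 1943, 1570.1 and 1954 in ‘CX001’ and rose (log2 difference 2.19 ± 0.15, adjusted p = 1.81e-05). In contrast, the profilin-1 copy *BraA09g056460.3C* was 1247 ± 113 in ‘FT’ against 784 ± 66.4 in ‘CX001’ (log2 difference -0.67 ± 0.12, adjusted p = 0.00291) and *BraA07g001060.3C* was 709 ± 181 in ‘FT’ against 692 ± 140.5 in ‘CX001’ (adjusted p = 0.951). *BraA03g012890.3C*, matched to profilin-5, had 282, 248 and 381 in ‘FT’ against 0 in each library of ‘CX001’ and was at least 283-fold lower in ‘CX001’, while the other profilin-5 match, *BraA10g014520.3C*, was 1019 ± 115 in ‘FT’ against 1288 ± 58.4 in ‘CX001’ (adjusted p = 0.0487). Of 6 tested profilin genes 2 rose and 1 fell.

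The formins had a median log2 ratio of -0.16. Of 24 tested formins 1 rose and 5 fell. *BraA03g041590.3C*, matched to FH1, a membrane-anchored formin, had 1981, 1442 and 2157 in ‘FT’ against 4163, 5265 and 3549.9 in ‘CX001’ and rose (log2 difference 1.22 ± 0.20, adjusted p = 0.00155). *BraA03g003150.3C*, matched to FH20, had 547, 632 and 537 in ‘FT’ against 213, 203 and 208 in ‘CX001’ and fell with close libraries (log2 difference -1.45 ± 0.13, adjusted p = 7.62e-05). The FH8 match *BraA07g035000.3C* had 102, 31.8 and 58.0 in ‘FT’ against 17.0, 14.5 and 17.1 in ‘CX001’ (log2 difference -1.77 ± 0.43, adjusted p = 0.0104). Both lines spread widely in the FH13 match *BraA02g011770.3C*, which had 105, 125 and 59.0 in ‘FT’ against 18.9, 36.7 and 7.50 in ‘CX001’ and fell (log2 difference -2.33 ± 0.55, adjusted p = 0.00911). The FH11 match *BraA05g039780.3C* fell as well (log2 difference -1.13 ± 0.34, adjusted p = 0.0237), a call that ended without any 1 ‘FT’ library (adjusted p = 0.0528 to 0.0797) and by its log2 ratio (-0.73) without ‘CX001’ library c. The fifth was a short FH6 match of 351 coding bases, *BraA02g045480.3C* (14.1 ± 7.09 in ‘FT’ against 1.67 ± 0.640 in ‘CX001’; adjusted p = 0.004). The most abundant formin, the FH10 match *BraA03g033310.3C*, was 3358 ± 409.6 in ‘FT’ against 2688 ± 725 in ‘CX001’ (adjusted p = 0.201).

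Of 9 tested villins 8 had a higher mean in ‘CX001’ and 6 passed the test at any fold in that direction, but only 1 rose and 1 fell. Both are villin-5 matches. *BraA10g015210.3C* had 145, 172 and 123 in ‘FT’ against 359, 345 and 315 in ‘CX001’ and rose (log2 difference 1.21 ± 0.17, adjusted p = 0.000777). *BraA03g012480.3C* had 73.1, 88.6 and 104 in ‘FT’ against 28.3, 37.6 and 18.2 in ‘CX001’ and fell (log2 difference -1.67 ± 0.33, adjusted p = 0.00389). The abundant villin-2 copies, *BraA05g002430.3C* and *BraA03g022060.3C*, were 3452 ± 289 in ‘FT’ against 4416 ± 144 in ‘CX001’ (log2 difference 0.36 ± 0.12, adjusted p = 0.04) and 2413 ± 219.5 in ‘FT’ against 3715 ± 143 in ‘CX001’ (log2 difference 0.63 ± 0.12, adjusted p = 0.00349). The villin-4 match *BraA03g055480.3C* was 943 ± 159 in ‘FT’ against 1874 ± 67.3 in ‘CX001’, a log2 ratio of 0.99 that passed 1 without ‘FT’ library a (1.10) or b (1.02) or ‘CX001’ library a (1.02).

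Copies of 1 protein match could go in opposite directions. Of the 82 matches with at least 2 copies, 69 had at least 2 copies at or above the minimum. In 5 of these 1 copy rose while another fell, and they were actin-3, MAP65-1, KIN-7D, alpha-5 tubulin and villin-5. In 14 of the 69 the copy with the highest level per kilobase differed between the lines. Neither count was made over the matches of all genes, so neither can be called particular to the members. In KIN-7D the falling copy is a model of 1404 coding bases and the rising one of 3156, and in alpha-5 tubulin and MAP65-1 the copy at 0 in 1 line is a fragment.

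**Figure D4:**
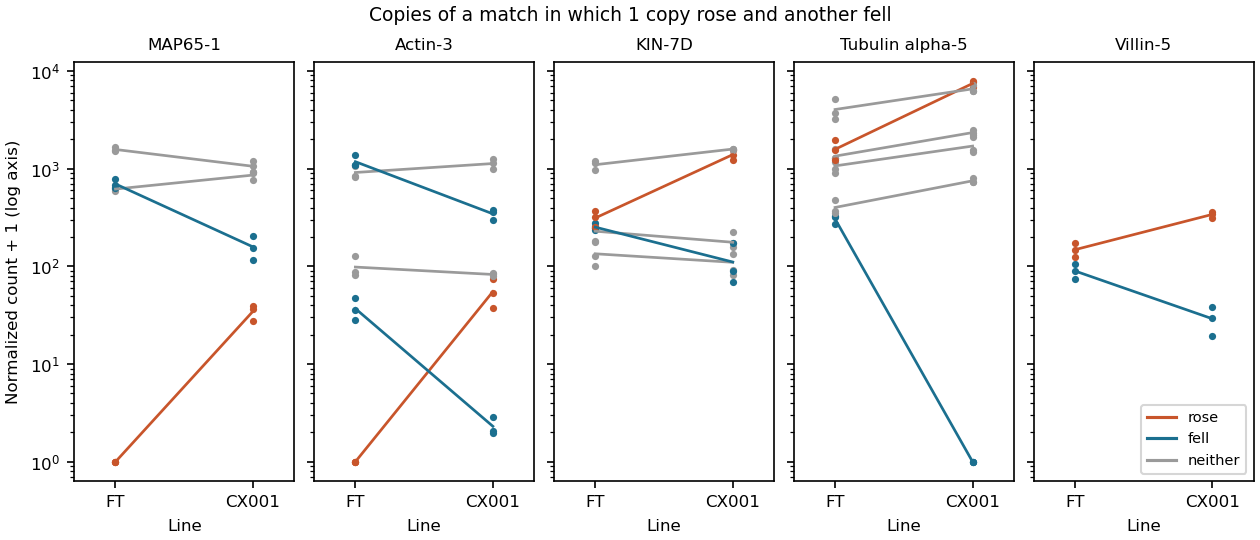
Normalized count plus 1 (vertical log axis) in ‘FT’ and ‘CX001’ for every tested copy of the 5 matches in which 1 copy rose and another fell, with 1 point per library and a line between the line means. The copies at 0 in 1 line are of MAP65-1 (‘FT’), actin-3 (‘FT’) and alpha-5 tubulin (‘CX001’).

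Some members were nearly unread in 1 line. Of the 254 tested members 12 (4.72%) had fewer than 4 reads in a line, close to 4.71% of all genes tested. In 6 of them the low line was ‘FT’ (3 at 0) and in 6 it was ‘CX001’ (4 at 0). Their median coding length was 813 bases, against 1898 in the other tested members. A gene that is missing from or altered in the genome of 1 line and a gene that is not transcribed there cannot be told apart from these counts.

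The libraries of ‘CX001’ differed among themselves in some members. Of 219 members with a ‘CX001’ mean of at least 50, 19 differed more than 2-fold between the highest and the lowest ‘CX001’ library, and library c was the highest in 9 of these and library a in 7. The median ratio of highest to lowest was 1.31 in ‘CX001’ and 1.29 in ‘FT’ over the 219. The widest was the MAP65-8 match given above (8.80-fold). The beta-5 tubulin match *BraA05g010320.3C* had 63.5, 59.7 and 71.7 in ‘FT’ against 31.1, 90.7 and 136 in ‘CX001’. The KIN-7G match *BraA09g042340.3C* had 276, 280.2 and 244 in ‘FT’ against 85.9, 181 and 345 in ‘CX001’. In these genes, as in the A01 copy of MAP70-5, MAP65-6, ARP2/3 subunit 2B and the falling KIN-7D match, library a was the lowest and library c the highest, which makes 7 of the 19. The reverse order was found in 5 of the 19, matched to FH11, FH9, KIN-14S, KIN-10C and KIN-4C. The FH11 match *BraA03g032120.3C* had 82.8, 167 and 100.1 in ‘FT’ against 101, 63.7 and 32.1 in ‘CX001’, and the FH9 match *BraA06g035640.3C* had 200.2, 353 and 358 in ‘FT’ against 261, 207 and 105 in ‘CX001’. Over all 219 members, whatever their spread, 25 had the first order and 71 the reverse. These counts of spread and order were not made over all genes, so they may not be particular to the members. The cellulose synthases of the secondary wall had the first order: the *CESA4* match *BraA06g043400.3C* had 984, 655 and 899 in ‘FT’ against 909.9, 3165 and 9173 in ‘CX001’, the *CESA7* match *BraA03g008010.3C* had 658, 431 and 626 in ‘FT’ against 691, 1963 and 5757 in ‘CX001’ and the *CESA8* match *BraA03g048470.3C* had 769, 453 and 628 in ‘FT’ against 706, 1885 and 4485 in ‘CX001’. The protodermal factor 1 match *BraA05g003100.3C* ran the other way, with 401, 30.9 and 1.07 in ‘CX001’ libraries a, b and c. The 11 epidermis markers together did not run this way, with summed counts of 5343, 5529 and 5537 in the same libraries. The part of stem composition in these values was not tested.

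**Figure D5:**
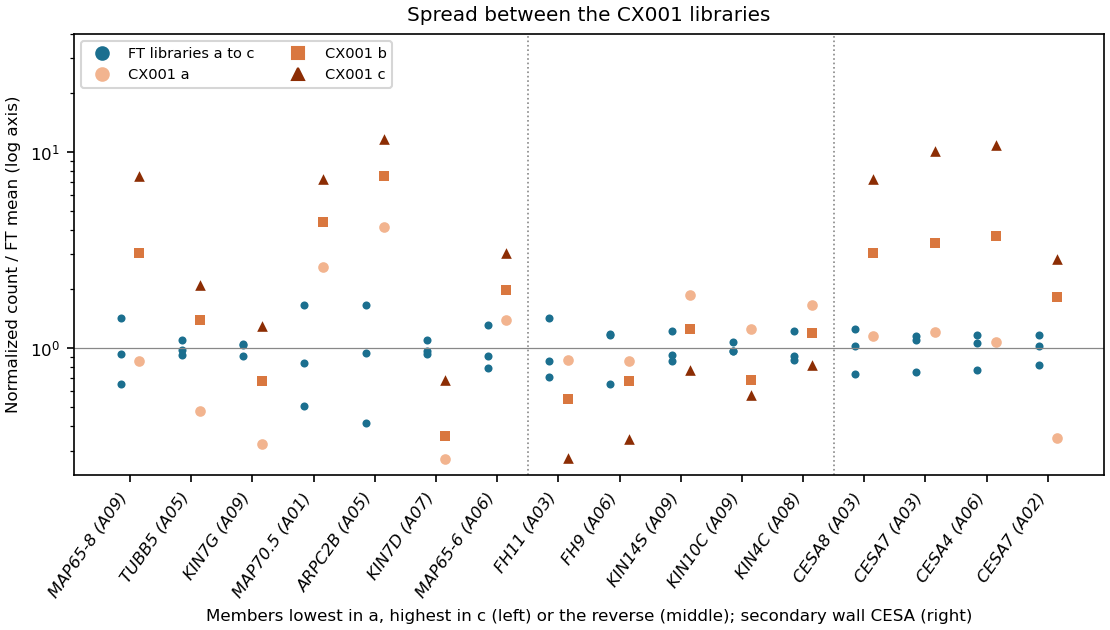
Normalized count of each library divided by the ‘FT’ mean of the gene (vertical log axis) for the 12 of the 19 widely spread members that were ordered by library from a to c or from c to a and for 4 secondary wall cellulose synthases (horizontal axis, separated by dotted lines), with ‘FT’ libraries in blue and ‘CX001’ libraries by symbol. In 7 members and the 4 cellulose synthases ‘CX001’ library a is the lowest and library c the highest of the line, in 5 members the reverse holds, and the *CESA4* match reaches 9173 normalized counts in library c.

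Further genes that work with the cytoskeleton were counted by the same rule. Their counts, here and further on, stand against the 14.6% of all genes tested that rose and the 16.0% that fell. Proteins of the SPIRAL1 family sit on growing microtubule ends, and 3 of 8 tested rose and 2 fell. The SPIRAL1 match *BraA02g036160.3C* had 1394, 1030.3 and 1331 in ‘FT’ against 231, 152 and 191 in ‘CX001’ and fell, and the SPIRAL1-like 3 match *BraA03g030820.3C* had 829.7, 649 and 834 in ‘FT’ against 37.8, 11.6 and 25.7 in ‘CX001’ and fell (adjusted p = 2.15e-05 and 3.28e-05). The SPIRAL1-like 5 match *BraA01g014080.3C* had 54.9, 7.70 and 27.4 in ‘FT’ against 253, 329 and 836 in ‘CX001’ and rose (adjusted p = 0.00173). Of 22 WAVE-DAMPENED and WVD2-like genes 5 rose and 4 fell. Both WVD2-like 4 copies rose, *BraA05g009370.3C* with 1788, 1892 and 1722 in ‘FT’ against 6223, 6126 and 5316 in ‘CX001’ (adjusted p = 2.31e-05). Of 15 AUGMIN subunits, which recruit the gamma-tubulin ring to existing microtubules, 0 rose and 2 fell, and *BraA08g035690.3C* (subunit 7) had 116, 97.3 and 74.8 in ‘FT’ against 0 in each library of ‘CX001’. Of 7 tested TPX2 matches 0 rose and 2 fell, and none of 3 CLASP genes moved past the rule.

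On the actin side, the SCAR/WAVE complex, which switches on ARP2/3, had 3 of 7 tested genes that rose and 0 that fell. The *PIR* match *BraA03g008530.3C* had 1457, 1352 and 1151 in ‘FT’ against 2944, 3149.8 and 2827 in ‘CX001’ (adjusted p = 0.000193), and the *NAP1* match *BraA05g010050.3C* had 996, 943 and 979 in ‘FT’ against 1989.7, 2056 and 1898 in ‘CX001’ (adjusted p = 0.000137). Of 28 myosins, the motors of actin filaments, 4 rose and 4 fell. Of 6 fimbrins 2 rose and 1 fell, with 1074, 745 and 712 in ‘FT’ against 2168, 2276 and 2527 in ‘CX001’ for the fimbrin-2 match *BraA09g004220.3C* (adjusted p = 0.000271). Of 7 LIM domain proteins 2 rose and 0 fell, and neither of 2 cyclase-associated proteins did.

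Cellulose synthases of the primary wall travel along cortical microtubules. All 8 tested matches to primary wall subunits were higher in ‘CX001’ at an adjusted p under 0.05, and 5 of them rose. The *CESA* match *BraA03g002020.3C* had 6988, 6164 and 7407 in ‘FT’ against 22673, 22127 and 19544 in ‘CX001’ (adjusted p = 9.45e-05), with no overlap. CELLULOSE SYNTHASE INTERACTIVE 1, which links the enzyme to the microtubule, had 5366, 4757 and 5137 in ‘FT’ against 11275, 13519 and 10484 in ‘CX001’ in *BraA04g016100.3C* and rose (adjusted p = 0.000398). Of 4 tested secondary wall subunits 2 rose and 0 fell. Among genes of division, 5 of 29 A- and B-type cyclins rose and 3 fell, near the 14.6% and 16.0% of all genes tested. Of 4 B-type cyclin-dependent kinases 2 rose and 0 fell, and of 4 Aurora kinases and 2 *KNOLLE* matches none did. Of 8 photosynthetic genes tested, 3 rose and 2 fell. The others of the 11 listed genes were not tested, because a line mean was above 25000 and its reads were not recovered. By the ratio of the means alone, 3 of the 11 were more than 2-fold higher and 3 more than 2-fold lower. The summed counts of all 11 were 300238 in ‘FT’ against 170682 in ‘CX001’, a ratio of 0.57. The part that xylem, dividing cells or other cell types had in the member differences was not tested.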

How the data were processed

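Stem RNA of ‘FT’ and ‘CX001’ was sequenced with 3 libraries per line. The methods of the study state that the authors trimmed and filtered the reads, mapped them to the genome with HISAT2, estimated levels with StringTie and tested with DESeq2, and TopHat2 appears in the submitters' processing notes too. The signal values used here were deposited by the authors for 33087 genes, and each is a line's mean over 3 libraries of read counts scaled by size factor. The authors' deposited table also holds their fold changes and p-values, which were not used. Coding length, position and protein matches were taken from the same table.

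A mean is the sum of 3 whole numbers of reads, each times the step of its library, so the reads per library were recovered by searching all combinations (numba 0.67.0). This gave 1 solution for 33064 genes in ‘FT’ and 33065 in ‘CX001’, with a largest relative residual of 5.66e-15. The 23 and 22 genes with means above 25000 were not searched. Size factors recomputed from the recovered reads differed from the steps by a factor of at most 1.0003. The plan had been to compare line means with no test. The libraries were found after the data were seen, and the test with limma 3.58.1 in R 4.3.3 (trend, pseudocount 1, genes with recovered reads whose higher line mean was 10 or more) was added then. Being on the log2(value + 1) scale, its differences understate the change of low genes. The script was tested on simulated data.

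The bound against a line at 0 uses 3 reads over the line, which is 1.05 normalized counts in ‘FT’ and 1.07 in ‘CX001’, and ratios with 1 to 3 reads carry 95% exact Poisson intervals. Bounds and intervals cover counting error only. The members, lists and markers were chosen with earlier results of these data known. Genes named were, in each family, the 2 with the highest mean, the largest rise and fall past 2-fold (up to 3 each in kinesins, microtubule-associated proteins and actins), those at 0 in 1 line, and copies of these. Every other member past the rule in ‘CX001’ was named as well, and these, with further genes given by value, were chosen after their values were seen. A list for FRAGILE FIBER names found 0 genes. Alternatives were other folds, minimums, pseudocounts, scalings, name matching and leaving out each library.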

Additional observations from a re-analysis of the deposited data

How the results depend on the processing

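Of the counts of members past 2-fold (33 higher and 28 lower), the number higher was 74 at 1.5-fold, 14 at 4-fold and 55 with no minimum mean, and the number lower was 14 at 4-fold. A minimum of 50, a pseudocount, equal totals, centring on the median of all genes and names that begin with the family name left both counts within 1.5 times. Among family medians on the log2 scale, with no minimum and a pseudocount of 1 katanin came to 0.17, ADF to 0.63, other actin-binding genes to -0.18 and profilin to -0.036. With a minimum of 50 ADF came to 0.60, and with equal totals the formins came to -0.28. The other family medians moved by less than the spread between libraries under each scaling, minimum and pseudocount. Leaving out 1 library at a time, 27 to 31 members rose and 24 to 28 fell in limma, and 26 to 28 and 24 to 26 of them were among those called with all libraries. Calls that ended in this way are given beside each gene, and in no named member did a log2 difference past the test change its sign. No paired analysis was possible because neither the labels nor the table tie a recovered library to a replicate number. Depth limits the genes with fewer than 4 reads in a line, whose folds are bounds or wide intervals, and the per-library values rest on reads recovered from the means.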
